A study of Mus musculus with 12 samples.

Results

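miR-21 and miR-22 were followed across the first days of pancreas formation in the mouse, through the table entries of their hairpins and arms. Entries were taken by name, as every mature arm and precursor of mir-21a, mir-21b, mir-21c and mir-22. This gave 8 of the 1053 entries of the table (633 mature arms and 420 precursors). The pair mmu-miR-21a-5p and mmu-miR-22-3p was chosen by measured values of these same libraries, namely scaled means that were highest at E9.5 beside read counts that looked more even across stages. The E9.5 peak and the evenness of the reads are therefore properties of the choice, and values that involve E9.5 are given below as a description with no test. The evenness covers all stages, so p-values of the comparisons without E9.5 are not free of the choice either.

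Small RNA was sequenced from 12 libraries of tdTomato-positive cells, 3 for each embryonic day (E) from E8.5 to E11.5. The E8.5 cells were Foxa2-CreER-labelled endoderm sorted from whole embryos. The CreER was knocked into Foxa2, an endoderm gene that is also active in the notochord and floor plate, and the pregnant dams had received tamoxifen. Cells of the 3 later stages carried a Pdx1-Cre transgene, driven by a gene of the early pancreas and duodenum, and came from the trunk. In all 4 groups Cre opened a tdTomato reporter at Rosa26, and the labels name no further treatment. The methods of the study say that the males of these crosses carried a mir-302 allele replaced by eGFP. The labels do not give the mir-302 genotype of the embryos, or whether embryos were pooled. Driver, body region and library number all changed together between E8.5 and the later stages, and the library number also differed among the later stages. The labels do not say what this number marks. Any batch that it may mark cannot be told apart from stage. Nothing in the labels says that the replicates came from separate litters, so p-values measure only the spread between these libraries.

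A miRNA is cut from a hairpin precursor as a 5p and a 3p strand, and as a rule 1 strand is kept in Argonaute while the other is lost. The kept strand finds mRNAs chiefly through its seed, bases 2 to 8, and lowers their level and translation. miR-21 is found in most tissues, rises in many tumours including those of the pancreas, and is well known for repressing Pdcd4. miR-22 is made from the exon of a noncoding host RNA and is known from heart muscle and blood cell formation, with Tet2 among its studied targets.

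The mature sequences are shown because the seed sets which mRNAs a miRNA can pair with and because miR-21b and miR-21c are near copies of miR-21a-5p. They are RefSeq sequences on build GRCm38.p6 (mm10), written 5′ to 3′, with the seed in capitals:
miR-21a-5p: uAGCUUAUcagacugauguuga
miR-21c: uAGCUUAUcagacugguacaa
miR-21b: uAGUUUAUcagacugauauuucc
miR-21a-3p: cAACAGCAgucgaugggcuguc
miR-22-3p: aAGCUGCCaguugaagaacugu
miR-22-5p: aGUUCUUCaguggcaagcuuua

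miR-21a-5p lies at chr11:86584120-86584141 on the minus strand. Its hairpin, Mir21a, falls within an exon of the protein-coding gene Vmp1, in the part annotated as untranslated and on the same strand. miR-22-3p lies at chr11:75463772-75463793 on the plus strand. Its hairpin, Mir22, falls within exons of the noncoding Mir22hg and of Tlcd2. Both mature strands are 22 bases long. Of 1679 mature mouse sequences, miR-21c alone shared the seed of miR-21a-5p, and none shared the seed of miR-22-3p. miR-21c differed from miR-21a-5p at 5 of 21 positions compared and miR-21b at 4 of 22, including 1 within the seed. Mir21b lies in an intron of Egfem1 on chromosome 3, and Mir21c overlaps no annotated gene on chromosome 8.

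The libraries differed 20.4-fold in depth, from 53996 to 1103383 reads assigned to miRNA entries, and the E9.5 libraries were the smallest (53996 to 80075). Precursor entries took 20.7 to 36.03% of reads at E9.5 and 10.2 to 13.7% elsewhere. Of the 8 entries, 3 passed the filter on low counts (miR-21a-5p, miR-22-3p and the precursor mir-21a), out of 571 that did. Levels are given in 3 ways: as deposited reads, as CPM (reads scaled to a common library total) with TMM factors, and as reads divided by the second count level of the library. That level is the count, beyond the lowest counts, at which entries were again most frequent, and it lay at 31.6 to 115 reads. It was sought within a set range of counts and did not follow the library total. It was 79.4 in E9.5 replicate 1 (64144 reads), 31.6 in E11.5 replicate 1 (417743) and 112 in E11.5 replicate 2 (1103383). Its peak was weakest in E9.5 replicate 3, at 2.39 times the trough before it. Values over this level are thus not corrected for depth and are no check apart from the reads.

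miR-21a-5p was the main arm in every library and among the more abundant miRNAs of the table. It held 2012, 1242 and 1473 reads in E8.5 replicates 1 to 3. The E9.5 libraries held 1204, 1082 and 1093 reads, those of E10.5 held 1695, 977 and 1535, and the E11.5 libraries 2135, 6747 and 5523. In reads the E9.5 libraries thus sat low and close together (1126 ± 67.5, SD, n = 3), within the range of E10.5 (1402 ± 377), and the E11.5 libraries lay above all others (4802 ± 2389).

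As CPM the order turned. miR-21a-5p stood at 3469, 3208 and 2124 CPM in the E8.5 libraries and at 19592, 11544 and 27633 CPM in those of E9.5. The E10.5 libraries held 6459, 8396 and 5978 CPM, and the last stage 4873, 6180 and 6648 CPM. From E8.5 to E11.5 the means were 2934 ± 713, 19590 ± 8045, 6944 ± 1280 and 5900 ± 920 CPM (SD, n = 3 each). No E9.5 library overlapped a library of another stage, and the E10.5 and E11.5 libraries overlapped each other. Without any scaling factor, its share of all reads was 0.319% ± 0.0696, 1.75% ± 0.354, 0.667% ± 0.0563 and 0.593% ± 0.0745 in the same order. Among mature arms its rank ran from 41 to 61 in E8.5 cells and from 8 to 13 at E9.5, then from 19 to 28 (E10.5) and from 28 to 41 (E11.5).

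Divided by the second count level, miR-21a-5p was at 27.2 ± 6.99, 16.5 ± 1.24, 16.2 ± 1.28 and 64.7 ± 3.98 from E8.5 to E11.5. On this scale E9.5 and E10.5 overlapped (15.2 to 17.5 and 14.8 to 17.2), both lay below E8.5 (20.6 to 34.5), and E11.5 lay above (60.1 to 67.5). The mean at E9.5 was 6.68 times that at E8.5 in CPM but 0.715 times in reads and 0.608 times over the second count level.

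miR-22-3p was scarcer and varied more between replicates, with a fitted biological coefficient of variation of 0.899 against 0.523 for miR-21a-5p. It held 281, 121 and 133 reads in the E8.5 libraries, and 431, 117 and 643 in those of E9.5. The E10.5 libraries held 229, 19 and 271 reads, and the E11.5 libraries 258, 6 and 79. In reads, its E9.5 mean (397 ± 265) was also the highest of the stages, 2.23 times that of E8.5 (178 ± 89.1), 2.29 times that of E10.5 (173 ± 135) and 3.47 times that of E11.5 (114 ± 130). E9.5 replicate 2 lay below all E8.5 libraries, so the read counts of the stages overlapped.

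As CPM, miR-22-3p stood at 484, 313 and 192 in E8.5 replicates 1 to 3 and at 7013, 1248 and 16256 in those of E9.5. The E10.5 libraries held 873, 163 and 1055 CPM, and the E11.5 libraries 589, 5.496 and 95.1 CPM. In stage order the means were 330 ± 147, 8173 ± 7571, 697 ± 471 and 230 ± 314 CPM (SD, n = 3 each). All E9.5 libraries lay above all others, although E9.5 replicate 2 did so by a small margin over E10.5 replicate 3, and the other 3 stages overlapped. Its share of reads was 0.0359% ± 0.0163, 0.670% ± 0.522, 0.0707% ± 0.0507 and 0.0239% ± 0.0331 from E8.5 to E11.5. Its rank among mature arms ran from 146 to 216 in E8.5 cells, from 17 to 86 at E9.5, and then from 94 to 181 (E10.5) and from 127 to 317 (E11.5).

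Over the second count level, miR-22-3p was at 2.94 ± 0.861, 5.76 ± 4.04, 1.79 ± 1.37 and 3.05 ± 4.44, with every stage overlapping every other. No library exceeded 9.96 times that level, and E10.5 replicate 2 (0.323) and E11.5 replicates 2 (0.0535) and 3 (0.9498) lay below it. The 6 reads in E11.5 replicate 2 were 0.000544% of its total (95% exact binomial interval 0.000200 to 0.00118%), and this was the deepest library. E11.5 replicate 1, with a total of 417743 reads, held 258 reads (0.0618%, interval 0.0545 to 0.0698%). These libraries of 1 stage thus differed well beyond counting error, which is all that the intervals cover. In bulk libraries, fewer expressing cells and less of the miRNA per cell cannot be told apart.

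**Figure D1:**
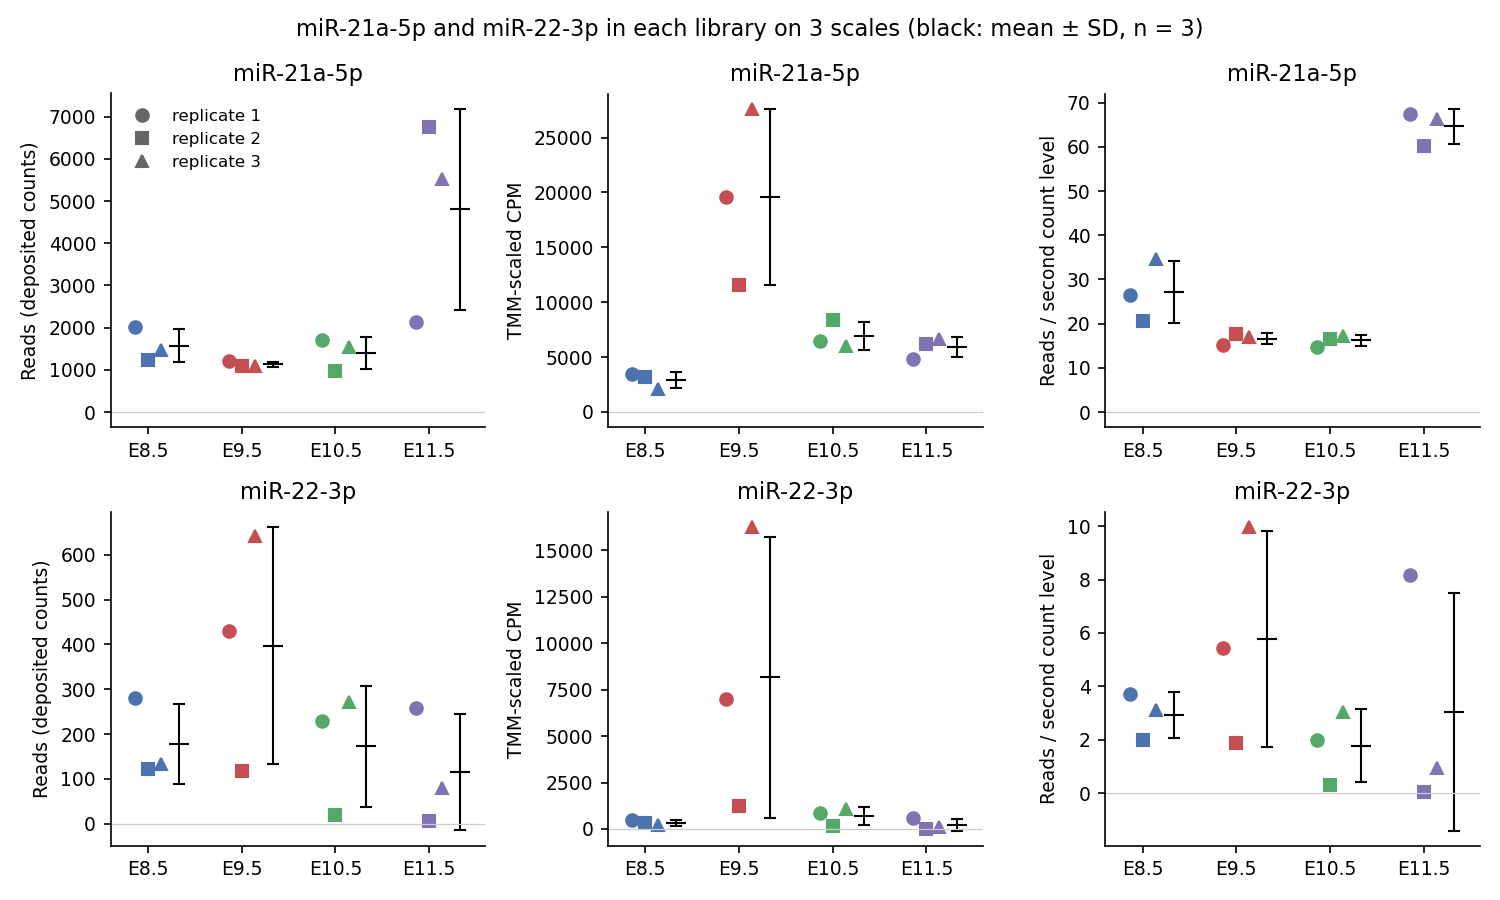
Level of miR-21a-5p (top) and miR-22-3p (bottom) in each library by stage, as deposited reads (left), TMM-scaled CPM (middle) and reads divided by the second count level (right). Symbols are replicates and black marks are the mean ± SD of 3 libraries. miR-21a-5p peaks at E9.5 in CPM alone and at E11.5 on the other scales, and the mean of miR-22-3p is highest at E9.5 on all 3 scales with overlapping libraries in reads and over the second count level. A highest mean at E11.5 was found for 323 of 571 entries in reads and for 281 over the second count level.

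The depth of the E9.5 libraries stands beside these values. The reads of miR-21a-5p varied with a coefficient of variation (CV) of 84.4% over the 12 libraries and those of miR-22-3p with 84.5%, against a median of 135% over the 571 entries tested. In reads, 7.88% of entries were steadier than miR-21a-5p and 8.06% were steadier than miR-22-3p, which describes the values that the choice used. In CPM, the CV of miR-21a-5p was 85.1% and that of miR-22-3p 203%, against a median of 124%, with 27.0% and 90.02% of entries steadier. CPM scaling therefore left the variation of miR-21a-5p about where it was and widened that of miR-22-3p. A highest mean at E9.5 was found for 115 of 571 entries in CPM (20.1%), for 12 in reads (2.10%) and for 8 over the second count level (1.40%). miR-22-3p was among the 12 and the 8, and miR-21a-5p was in neither. The mean of miR-21a-5p was highest at E11.5 on these last scales, as for 323 of 571 entries in reads and 281 over the second count level.

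**Figure D2:**
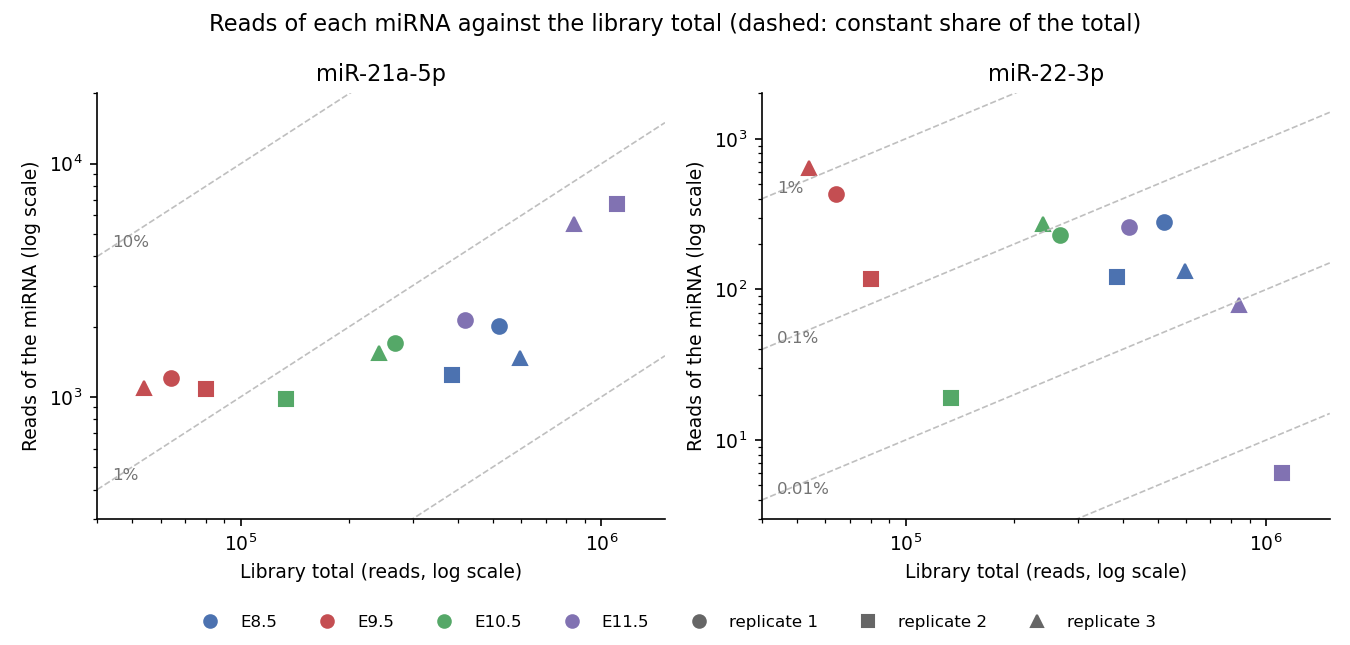
Reads of miR-21a-5p (left) and miR-22-3p (right) against the total reads of the library, both on log scales, with stages in colour and replicates by symbol. Dashed lines mark a constant share of the total. miR-21a-5p holds between 977 and 2135 reads in 10 of the libraries although their totals run from 53996 to 594224, and only E11.5 replicates 2 and 3 lie higher. miR-22-3p shows no rise with the total, and its fewest reads (6) are in the deepest library.

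To set the later Pdx1-Cre-labelled cells against endoderm without E9.5, E10.5 was compared with E8.5 by the quasi-likelihood test of edgeR. Reads of both stages were part of the evenness that the choice used. Library totals were 386094 to 594224 reads at E8.5 and 133435 to 267978 at E10.5, so even reads differ in CPM. The p-values here therefore describe these libraries and are not independent of the choice. miR-21a-5p was at higher CPM in all 3 E10.5 libraries than in any E8.5 library, as were 74 of 571 entries, while the stages did not overlap in either direction for 36.6% of entries. Its log2 fold change was 1.24 (SE 0.39) against a median of -0.26 over all entries, and it was not called (edgeR adjusted p 0.0522). miR-22-3p differed by 1.08 (SE 1.03, adjusted p 0.564) and the precursor mir-21a by 0.17 (SE 1.06, adjusted p 0.959). None of the 3 entries was called, where 8.58% of all entries were (25 higher and 24 lower).

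The miR-21a-5p value lay next to the threshold, and settings moved it across. It was called with RLE size factors (1.40, adjusted p 0.0417), with mature arms alone (1.32, 0.0231), with only the libraries of these stages (1.26, 0.0173), with DESeq2 (1.40, 0.0218) and with limma voom (1.24, 0.0308). It was also called without E9.5 replicate 1 (1.28, edgeR adjusted p 0.0487), replicate 2 (1.32, 0.0292) or replicate 3 (1.26, 0.0263), which share the spread estimate but are not in the comparison. It was not called with library size alone (1.06, edgeR adjusted p 0.0678), without the filter (1.26, 0.0857), with at least 10 counts in every library (0.78, 0.107), with counts under 10 set to 0 (0.89, 0.182) or with the replicate block (1.24, 0.0709). Nor was it called when any one of the other 9 libraries was left out, where the highest adjusted p was 0.187 (without E8.5 replicate 3). Scaling by the second count level turned the direction (-0.75, adjusted p 0.348), in a fit where the median of all entries was -2.27.

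E11.5 against E8.5 gave a like picture. The CPM of miR-21a-5p did not overlap between these stages, which held for 38.5% of all entries, and its log2 fold change was 1.00 (SE 0.39, median of all entries -0.07). It was not called (edgeR adjusted p 0.103), although the fit with these stages alone (1.05, adjusted p 0.0288) and limma voom (1.11, adjusted p 0.0128) called it. This was the one comparison between E8.5, E10.5 and E11.5 in which miR-21a-5p kept its direction over the second count level (1.25, adjusted p 0.215). miR-22-3p differed by -0.53 (SE 1.03, adjusted p 0.882) and mir-21a by 0.56 (SE 1.06, adjusted p 0.882). The value of miR-22-3p hung on single E11.5 libraries, at -2.64 without replicate 1 and -0.03 without replicate 2, and it was called in neither case (edgeR adjusted p 0.144 and 0.988). Again none of the 3 was called, against 11.6% of entries (30 higher and 36 lower).

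Within Pdx1-Cre-labelled cells, E11.5 against E10.5 showed no call among the 3 entries, where 0.35% of all entries were called. The log2 fold change was -0.24 for miR-21a-5p (SE 0.39, edgeR adjusted p 0.901), -1.61 for miR-22-3p (SE 1.05, adjusted p 0.593) and 0.39 for mir-21a (SE 1.06, adjusted p 0.955). The miR-22-3p value was -3.72 without E11.5 replicate 1 (edgeR adjusted p 0.283), -1.11 without E11.5 replicate 2 (0.727) and -3.62 with limma voom (0.355). The CPM of each overlapped between the stages, as it did for all but 13.5% of entries. Over the second count level miR-21a-5p was instead higher at E11.5 and called (2.00, adjusted p 0.0189), but in that fit 108 entries were called, all of them higher, and the median of all entries was 2.26.

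For the stage that the choice used, the fitted log2 differences are given for completeness. E9.5 exceeded E8.5, E10.5 and E11.5 by 2.74 (SE 0.41), 1.496 (SE 0.40) and 1.73 (SE 0.40) for miR-21a-5p, and by 4.63 (SE 1.19), 3.54 (SE 1.13) and 5.16 (SE 1.22) for miR-22-3p. The median of all entries in these contrasts was -0.84, -0.17 and -0.66. On log2 reads before scaling, the same differences were -0.46, -0.28 and -1.93 for miR-21a-5p and 0.95, 1.58 and 2.64 for miR-22-3p. The E9.5 peak of miR-21a-5p was thus seen with scaling by library content and neither in reads nor over the second count level, and that of miR-22-3p was smaller in reads but present. In reads 12 of 571 entries peaked at E9.5, and 8 did over the second count level. The lack of a peak there is therefore not particular to miR-21a-5p.

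**Figure D3:**
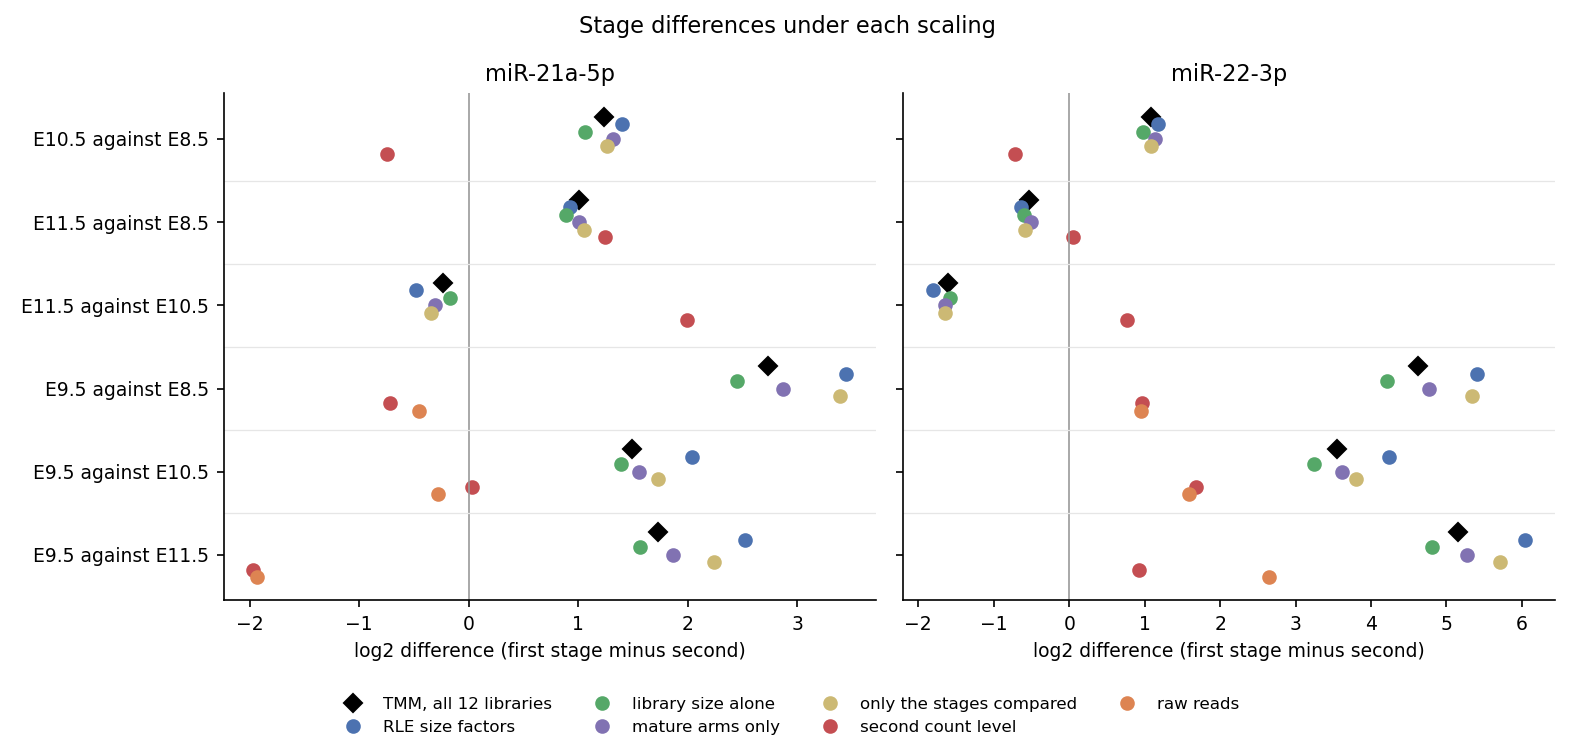
Fitted log2 difference of miR-21a-5p (left) and miR-22-3p (right) for each pair of stages, first stage minus second, under 6 scalings or subsets and, for the comparisons with E9.5, on raw reads. Diamonds are the TMM fit over all 12 libraries. The 5 fits scaled by library content lie on 1 side of zero in each comparison. For miR-21a-5p the second count level lies apart from them except in E11.5 against E8.5, and reaches -1.97 in E9.5 against E11.5.

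The ratio of the miRNAs to each other within a library needs no scaling. It is given as a description, since it is built from the reads on which the pair was chosen. miR-21a-5p exceeded miR-22-3p in all 12 libraries. In replicates 1 to 3 it did so by 7.16, 10.3 and 11.1 times among E8.5 cells, and by 2.79, 9.25 and 1.70 times a day later. The E10.5 libraries gave 7.40, 51.4 and 5.66 times, and those of E11.5 gave 8.28, 1124.5 and 69.9 times. The log2 ratio was 3.22 ± 0.33, 1.82 ± 1.25, 3.68 ± 1.72 and 6.39 ± 3.49 in stage order (SD, n = 3 each). It was tight at E8.5 and spread widely at E11.5, where the 6 reads of miR-22-3p in replicate 2 gave the highest value.

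The log2 ratio at E8.5 (3.22 ± 0.33, SD, n = 3) differed by -0.74 from that of the Pdx1-Cre libraries (3.96 ± 2.86, SD, n = 9), less than their spread. Without E11.5 replicate 2 the difference was 0.01 in the other direction. The ratio at E9.5 (1.82, n = 3) differed by -3.22 from that of the later Pdx1-Cre libraries (5.04 ± 2.88, SD, n = 6), and E9.5 replicate 2 (log2 ratio 3.20) lay within the later range.

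**Figure D4:**
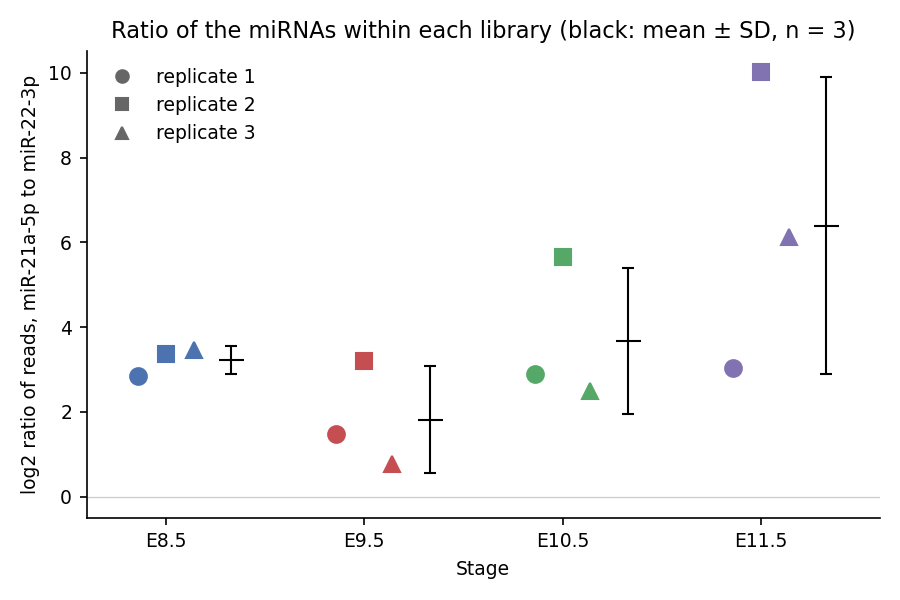
Log2 ratio of miR-21a-5p to miR-22-3p reads within each library by stage, with a pseudocount of 0.5 read. Symbols are replicates and black marks the mean ± SD of 3 libraries. E8.5 libraries sit between 2.84 and 3.46, E9.5 replicates 1 and 3 are the lowest of all (1.48 and 0.76), and E11.5 runs from 3.05 to 10.0.

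The other strands were nearly absent. For mir-21a, the 5p arm held 26718 reads over all libraries and the 3p arm 74, of which 73 were in E11.5 replicate 2 and 1 in E9.5 replicate 2. For mir-22, the 3p arm held 2588 reads and the 5p arm 65, all of them in E11.5 replicate 2. The precursor entry mir-22 followed the same pattern, with 94 of its 98 reads in that library and 1 read each in E8.5 replicate 1, E9.5 replicate 3, E10.5 replicate 1 and E11.5 replicate 1. In E11.5 replicate 2, then, miR-22-5p (65 reads) exceeded miR-22-3p (6 reads), against the usual order of the arms. These 3 entries stood at 0.651, 0.579 and 0.838 times the second count level of that library (112 reads). In E9.5 replicates 1 to 3, the level of 3 counts was 46.8, 37.5 and 55.6 CPM of library total, and an arm listed at 0 there may have been present up to that level.

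The precursor entry mir-21a, in contrast, held reads in every library. It held 118, 156 and 404 reads in the E8.5 libraries and 10, 80 and 87 in those of E9.5. The E10.5 libraries held 207, 9 and 120, and those of E11.5 held 112, 892 and 565. Relative to precursor and 5p arm together, it took 12.7% ± 8.11, 5.03% ± 3.65, 6.35% ± 5.05 and 8.65% ± 3.39 from the first to the last stage (SD, n = 3 each), and the stages overlapped. In CPM it stood at 396 ± 190, 1072 ± 1036, 444 ± 356 and 584 ± 293. Its E9.5 libraries spread from 163 to 2200 CPM and overlapped every other stage, unlike those of miR-21a-5p. The fitted difference of mir-21a between E9.5 and E8.5 was 1.43 (SE 1.08). How reads were shared between a precursor entry and its arms is not given in the sources used here, and reads of 17 to 36 bases do not represent intact hairpins.

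The near copies added almost nothing. miR-21c, which shares the seed, held 11 reads over the 12 libraries, at most 4 in any one (E11.5 replicate 3). miR-21b held 1 read in each of E8.5 replicate 3 and E10.5 replicate 1. Since these sequences are close to miR-21a-5p and the counting could split reads between them, both entries are uncertain.

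For a view of which miRNAs had a like profile, Pearson's r of log2(CPM + 1) over the 12 libraries was ranked among 376 mature arms. It is a description, since all points share the library depth and scaling. The highest values with miR-21a-5p were those of let-7f-5p (0.913), let-7b-5p (0.892), miR-200a-3p (0.882), miR-203-3p (0.835) and miR-30e-5p (0.829). The mean CPM of let-7f-5p was 1343, 15983, 3291 and 5157 from E8.5 to E11.5, and its reads ran from 428 to 1611 at E9.5 against 612 to 822 at E8.5. Its CPM was thus highest at E9.5, as that of miR-21a-5p was, while its E9.5 reads lay on both sides of those at E8.5 and those of miR-21a-5p lay below. The likeness of other entries to miR-22-3p was lower: miR-320-3p (0.732), miR-27a-3p (0.728), let-7b-5p (0.726), miR-23a-3p (0.707) and miR-5106 (0.706). Between miR-21a-5p and miR-22-3p themselves, r was 0.594 in CPM and -0.4998 in log2 reads, so that their likeness in CPM did not extend to reads.

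Markers of the sorted and of other cell types were read beside these values, with no set test. The pancreatic list (miR-375-3p and miR-7a-5p, both known from endocrine and progenitor cells) was present at every stage. Its sum was 22920 to 27415 CPM in E8.5 cells, 33853 to 58970 CPM in E9.5 cells, 96362 to 139130 CPM in E10.5 cells and 73090 to 111403 CPM in E11.5 cells. In E11.5 against E8.5, where 30 of all 571 entries were called higher, 2 of its 2 members were, as were 3 of 5 epithelial markers of the miR-200 family and 2 of 5 mesenchymal markers tested (miR-199a-5p and miR-214-3p). In E10.5 against E8.5, where 25 of all entries were called higher, the counts were 2 of 2, 1 of 5 and 1 of 5. In E11.5 against E8.5 the other mesenchymal markers tested were not called: miR-199a-3p (log2 fold change 0.13), miR-143-3p (-0.96) and miR-145a-5p (-1.21). The mesenchymal sum did not rise, at 6697 to 13200 CPM in E8.5 cells and 3783 to 7975 CPM in E11.5 cells. The hepatic marker miR-122-5p stood at 38757 to 91433 CPM at E9.5 against 461 to 591 at E8.5. It was likewise high at 71698 to 130820 CPM in E10.5 cells and 43157 to 70047 CPM in E11.5 cells. Against E8.5, 24 of all entries were called lower at E10.5 and 36 at E11.5. In both comparisons these held 5 of 5 tested markers of pluripotency and the early embryo (miR-302, miR-294 and miR-295 arms). They also held miR-1a-3p (-3.41 and -4.36), the 1 muscle marker tested. Of 2 neural markers tested, 0 were called.

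miR-22-3p is known from blood cells, so the blood lists bear on it most. Of 5 erythroid markers 3 were in the table, and their sum was 48.8 to 672 CPM at E9.5 against 459 to 1307 CPM in E8.5 cells, 498 to 1197 CPM in E10.5 cells and 632 to 1315 CPM in E11.5 cells. Most of this sum came from miR-486a-5p and miR-486b-5p. Their reads were equal in E9.5 replicate 1 (1 each), E10.5 replicates 2 (29 each) and 3 (68 each) and E11.5 replicate 1 (288 each). Whether the same reads entered both was not tested. miR-451a, the defining erythroid miRNA, held 0 or 1 read in every E8.5 and E9.5 library and 20 reads in E10.5 replicate 3. Of 6 leukocyte markers 4 were in the table, with a sum of 10.7 to 3944 CPM at E9.5 against 115 to 537 CPM in E8.5 cells, 68.6 to 382 CPM in E10.5 cells and 66.2 to 225 CPM in E11.5 cells. The second count level was 79.4 reads in E9.5 replicate 1 and 64.6 in E9.5 replicate 3. Near that level, the myeloid miR-223-3p held 103 reads in replicate 1 and 105 in replicate 3. It held none in E9.5 replicate 2, and at most 1 read in any library of the other stages. The other leukocyte markers did not share this pattern. miR-155-5p held 2, 0 and 1 reads in E9.5 replicates 1 to 3 against 100, 163 and 39 at E8.5, miR-142a-5p held 0, 1 and 0, and miR-146a-5p held 50 reads in replicate 3 alone. E9.5 replicates 1 and 3 were also those with the most miR-22-3p (431 and 643 reads, against 117 in replicate 2), and the part of leukocyte RNA in that value was not tested. The muscle sum was 5288 to 26850 CPM at E9.5, highest in replicate 3, and 6270 to 26465 CPM in E8.5 cells. It was lower later, at 266 to 3517 CPM in E10.5 cells and 280 to 1713 CPM in E11.5 cells. Nearly all of it was miR-1a-3p, and the other members did not share its course. miR-133a-3p held 75, 1 and 1 reads at E8.5 and 0, 0 and 55 at E9.5. miR-206-3p held at most 10 reads in any library before E11.5, and 106, 0 and 208 there. The part of muscle RNA in the miR-22-3p values was not tested. The endothelial sum was 32.5 to 405 CPM at E9.5 and 1821 to 2274 CPM in E8.5 cells, and miR-126a-3p, its defining member, held 2, 37 and 13 reads at E9.5. The later stages were also low in this sum, at 240 to 430 CPM in E10.5 cells and 34.2 to 424 CPM in E11.5 cells.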

How the data were processed

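Small RNA was sequenced from 12 libraries in 4 stage groups of 3, named by the sample labels. The values are read counts, deposited by the authors in 1 table without normalisation. Per the study's methods, COMPSRA trimmed the adapter and 4 random bases, aligned reads to mm10 with STAR and counted them. The random bases were not used to count molecules, so PCR copies remain and intervals and floors (3 counts) cover counting error only. Per the file headers, reads of at least 17 bases were kept, up to 35 bases in 10 libraries and 36 in 2. The submitters' processing notes also name GRCm39. Totals ran from 53996 to 1103383 reads.

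Counts were fitted in edgeR 4.0.16 (quasi-likelihood test, R 4.3.3; stage as factor, 12 libraries in 1 fit, TMM factors, filterByExpr with minimum count 10 and total 15, 571 entries, Benjamini-Hochberg adjustment over all of them, called under 0.05). The step was tested on simulated data with larger log2 differences than these entries showed between E8.5, E10.5 and E11.5. That test therefore does not bear on the entries left uncalled. CPM used TMM-scaled library totals. The SE is the log2 fold change over the square root of F. Ratios took a pseudocount of 0.5. An exact permutation test planned for them is not given, since both comparisons hold E9.5 libraries. Entries named were all entries of the hairpins, seed mates and the 5 mature arms with the highest r to each of the pair. The members and lists were chosen with earlier results of these data known. Alternatives were RLE, library size alone, mature arms only, the second count level, other filters, subsets of libraries, a replicate block, DESeq2 1.42.0 and limma 3.58.1. Sequences were matched by name to RefSeq (GRCm38.p6) and hairpins to GENCODE on the same build. No replicate pair agreed within sampling noise (chi-square per degree of freedom 41.5 to 137). Replicates agreed least at E9.5, with Spearman correlations of reads of 0.33 to 0.42 against 0.55 to 0.74 at the other stages.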

Additional observations from a re-analysis of the deposited data

How the results depend on the processing

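All comparisons without E9.5 kept their direction under the alternatives that scale by library content, and the second count level turned 5 of 6: miR-21a-5p E10.5 against E8.5 (-0.75) and E11.5 against E10.5 (2.00), and miR-22-3p E10.5 against E8.5 (-0.72), E11.5 against E8.5 (0.047) and E11.5 against E10.5 (0.77). That scaling moved the whole table, with medians of all entries of -2.27 (E10.5 against E8.5), 0.017 (E11.5 against E8.5) and 2.26 (E11.5 against E10.5). Both miRNAs lay above the median in E10.5 against E8.5 and below it in E11.5 against E10.5, as in the fit reported. miR-21a-5p E10.5 against E8.5 became called with RLE (1.40), mature arms only (1.32), the compared stages only (1.26), DESeq2 (1.40) and limma voom (1.24), and ran from 1.04 to 1.43 when each library was left out. E11.5 against E8.5 became called with the compared stages only (1.05) and voom (1.11). For miR-21a-5p the E9.5 differences moved with RLE to 3.45, 2.04 and 2.53 (against E8.5, E10.5 and E11.5), with the compared stages only to 3.39 (E8.5) and 2.24 (E11.5), with 10 counts in every library to 2.22 (E11.5), with the second count level to -0.72, 0.031 and -1.97 and in raw reads to -0.46, -0.28 and -1.93. With each library left out, E9.5 against E8.5 ran from 2.41 to 3.27. For miR-22-3p they moved with the second count level to 0.97, 1.69 and 0.92 and in raw reads to 0.95 (E8.5) and 1.58 (E10.5). The cause was not tested. The log2 ratio of E8.5 against Pdx1-Cre ran from -1.14 to 0.013 with each library left out. miR-22-3p has no value with at least 10 counts in every library, since it did not pass.

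The number of entries called ranged over these settings from 26 to 134 (E10.5 against E8.5, 49 in the fit reported), 33 to 147 (E11.5 against E8.5, 66) and 0 to 108 (E11.5 against E10.5, 2), the 0 with counts under 10 set to 0. Replicate numbers did not pair the libraries, since deviations of same-numbered libraries correlated at -0.134 to 0.125. With the replicate number as a block, miR-21a-5p differed by 1.24, 0.99 and -0.24 and miR-22-3p by 0.30, -1.91 and -2.21 (E10.5 and E11.5 against E8.5, E11.5 against E10.5), none called, and 41, 61 and 3 entries were called. At E9.5, 3 counts stand for 37.5 to 55.6 CPM of library total, which limits what depth can show of low entries there.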
